A study of Mus musculus with 20 samples.

Results

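The genes described here are 10 immediate-early genes that tissue can switch on within minutes of a stimulus, Fos, Fosb, Jun, Junb, Egr1, Ier2, Ier3, Nr4a1, Dusp1 and Zfp36. They were taken by name from the table of estimated read counts, which lists 25308 genes, and each name matched 1 row. Poly(A) RNA of the heart apex of 20 mice was sequenced in 2 runs, and the mice fall into 3 groups. AL mice (n = 9) carry the λS-DH genotype and had amyloid deposits in the heart, LS mice (n = 4) are λS-DH mice without deposits, and Ctrl mice (n = 7) are DH animals. λS-DH mice express a human λ light chain from the Ig kappa locus, and all 3 groups share the DH background, in which plasma cells make no Ig heavy chain. Deposits in AL mice had been induced by intravenous injection of amyloid seeds or of a soluble variable domain, whereas LS mice were not induced, so induction and deposits cannot be told apart between these groups. The study used male and female mice, and the ages of single mice were not given. Xist, a transcript made in female cells, serves below as a covariate for sex. How the sexes fall over groups and runs is not given here. Run 1 held AL1 to AL7, all 4 LS mice and Ctrl1 to Ctrl4, and run 2 held AL8, AL9 and Ctrl5 to Ctrl7.

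Immediate-early genes are transcribed by factors that already sit in the cell and that MAP kinases and calcium signals activate, so that their transcripts appear before any new protein is made and are then quickly degraded. The products are mainly transcription factors, which carry the signal to later genes, and feedback inhibitors, which end it. In heart tissue they respond to stretch, ischaemia and neurohormones.

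Run 1 libraries held 43993277 to 62668146 counts and run 2 libraries held 7867642 to 11794615, so a gene at 0 counts could still reach 0.0682 CPM (the count scaled to a common library size) in run 1 and 0.381 CPM in run 2, from counting error alone. Levels below are CPM with library sizes scaled by the trimmed mean of M values (TMM). No pair of libraries among 190 was identical. Cardiomyocyte transcripts were abundant in every library, with a summed level of 9 marker genes of 51320 to 84210 CPM. Liver transcripts were also present, from 2.85 to 346.5 CPM over 14 genes, and 13 of the 14 were called lower in AL than in Ctrl, 10 in AL than in LS and 13 in run 2 than in run 1. The mice LS4, AL9 and Ctrl4 stood apart for the genes described here, and values without them follow the results they moved. Of the 20 mice, LS4 had the highest share of mitochondrially encoded transcripts (37.1%) and the lowest TMM factor (0.863), and AL9 the lowest share (18.3%) and the highest factor (1.299), and the part of either in the results was not tested. AL9 was also the highest mouse for 19.9% of all tested genes.

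All 10 genes passed the filter on low counts that left 14477 genes. Their levels per kilobase of annotated exon, as the median of 20 mice, ran from Ier3 at 23.2 CPM per kb through Jun (12.8), Dusp1 (12.3), Zfp36 (6.73), Ier2 (3.77), Nr4a1 (3.63), Junb (2.42), Egr1 (1.43) and Fos (1.22) to Fosb at 0.0545 CPM per kb. The ranges over mice overlapped between all neighbours in this order. Fosb lay at percentile 5.18 of 14291 tested genes with a known exon length and Ier3 at percentile 91.7. The spread between mice went the other way. After removal of group and run means, the SD of log2 CPM was 1.53 for Egr1, 1.30 for Fos, 1.22 for Fosb and 0.97 for Junb, against a median of 0.23 over all tested genes. These 4 genes lay between percentiles 94.2 and 97.9 of that SD, and Ier3, with an SD of 0.19, at percentile 40.5.

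Fos encodes a subunit of the AP-1 transcription factor and is the classical immediate-early gene. In run 1, Fos was between 1.05 and 4.09 CPM in the 7 AL mice, with a median of 1.59 CPM. The LS mice had 5.60, 2.67, 3.79 and 87.6 CPM, and the Ctrl mice of run 1 had 4.31, 1.90, 2.32 and 11.7 CPM. Thus LS4 was 21.8 times the mean of the other 3 LS mice, and Ctrl4 was 2.72 times the next highest Ctrl mouse. In run 2, AL8 and AL9 had 14.1 and 29.1 CPM, while Ctrl5, Ctrl6 and Ctrl7 had 2.07, 1.39 and 2.84 CPM. Both AL mice of run 2 were therefore above all 7 AL mice of run 1, and the groups overlapped in run 1 but not in run 2. Because whole tissue was sequenced, fewer cells of a type and less RNA per cell cannot be told apart for this or any other gene.

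Fosb, a close relative of Fos, was the least abundant of the genes. It had 6 to 35 counts in AL mice of run 1 and no counts in Ctrl6, where the 3-count floor is 0.323 CPM. LS4 and AL9 had 3.95 and 3.79 CPM, and no other mouse exceeded 1.30 CPM, the value of AL8. Jun and Junb encode the partners of Fos in AP-1. Jun varied less, from 23.5 CPM in AL2 to 85.3 CPM in LS4, with AL9 next at 80.7 CPM. Junb was at 37.2 CPM in LS4, 33.9 CPM in AL9 and 21.9 CPM in Ctrl4, and at most 8.77 CPM in the other 17 mice. The same 3 mice thus gave the highest Junb of their groups.

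Egr1 encodes a zinc finger transcription factor. It was the gene in which LS4 departed most, with 205.8 CPM against 5.197, 3.85 and 8.52 CPM in LS1 to LS3, a ratio to their mean of 35.2. The Ctrl mice of run 1 had 27.1, 3.21, 6.38 and 46.9 CPM, those of run 2 had 4.23, 5.38 and 5.76 CPM, and the 7 AL mice of run 1 spanned 2.49 to 11.9 CPM with a median of 6.41. AL8 and AL9 had 19.2 and 34.3 CPM. Ctrl1 and Ctrl4 were thus above every AL mouse of run 1. Ier2, which encodes a nuclear early-response protein, was at 29.1 CPM in LS4, 16.9 CPM in AL9 and 9.77 CPM in Ctrl4, and between 4.32 and 7.82 CPM in the others.

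Nr4a1 encodes the orphan nuclear receptor Nur77. It differed from the other transcription factor genes in that AL8, with 56.8 CPM, was the highest mouse, before LS4 (52.3 CPM) and AL9 (45.6 CPM). The other LS mice had 31.99, 24.4 and 7.60 CPM, the AL mice of run 1 had 5.56 to 23.4 CPM with a median of 11.5, and the Ctrl mice had 7.23 to 29.1 CPM with a median of 12.4. The values of the 3 groups overlapped.

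The remaining genes limit the response. Dusp1 encodes a phosphatase that inactivates MAP kinases, and Zfp36 encodes tristetraprolin, which binds AU-rich transcripts and promotes their decay. Dusp1 was at 88.6 CPM in LS4 and between 24.7 and 58.6 CPM in the other mice. Zfp36 was at 68.7 CPM in LS4, 42.3 CPM in Ctrl4 and 11.4 to 33.2 CPM in the others. LS4 was 1.51 and 1.63 times the second highest mouse for these genes, against 4.39 times for Egr1 and 3.01 times for Fos. The annotated Dusp1 locus overlaps 4 other genes, 2 of them on the same strand, so its count may hold reads of these.

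Ier3 encodes a short-lived protein that modulates ERK signalling and cell survival. Its pattern was unlike that of the other 9 genes. In run 1, the 7 AL mice had 36.0 to 42.1 CPM with a median of 39.4. The LS mice had 18.5, 20.3, 19.4 and 32.2 CPM and the Ctrl mice had 24.6, 28.6, 27.8 and 21.9 CPM, all below the lowest AL mouse, a separation that 3.01% of all tested genes showed in this direction. In run 2, AL8 and AL9 had 22.6 and 21.6 CPM against 18.01, 16.9 and 16.3 CPM in the 3 Ctrl mice. The groups did not overlap within either run, although AL8 lay below 3 and AL9 below all 4 of the run 1 Ctrl mice. Of the 14477 tested genes, 139 (0.96%) were above all non-AL mice of the run in both runs.

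**Figure D1:**
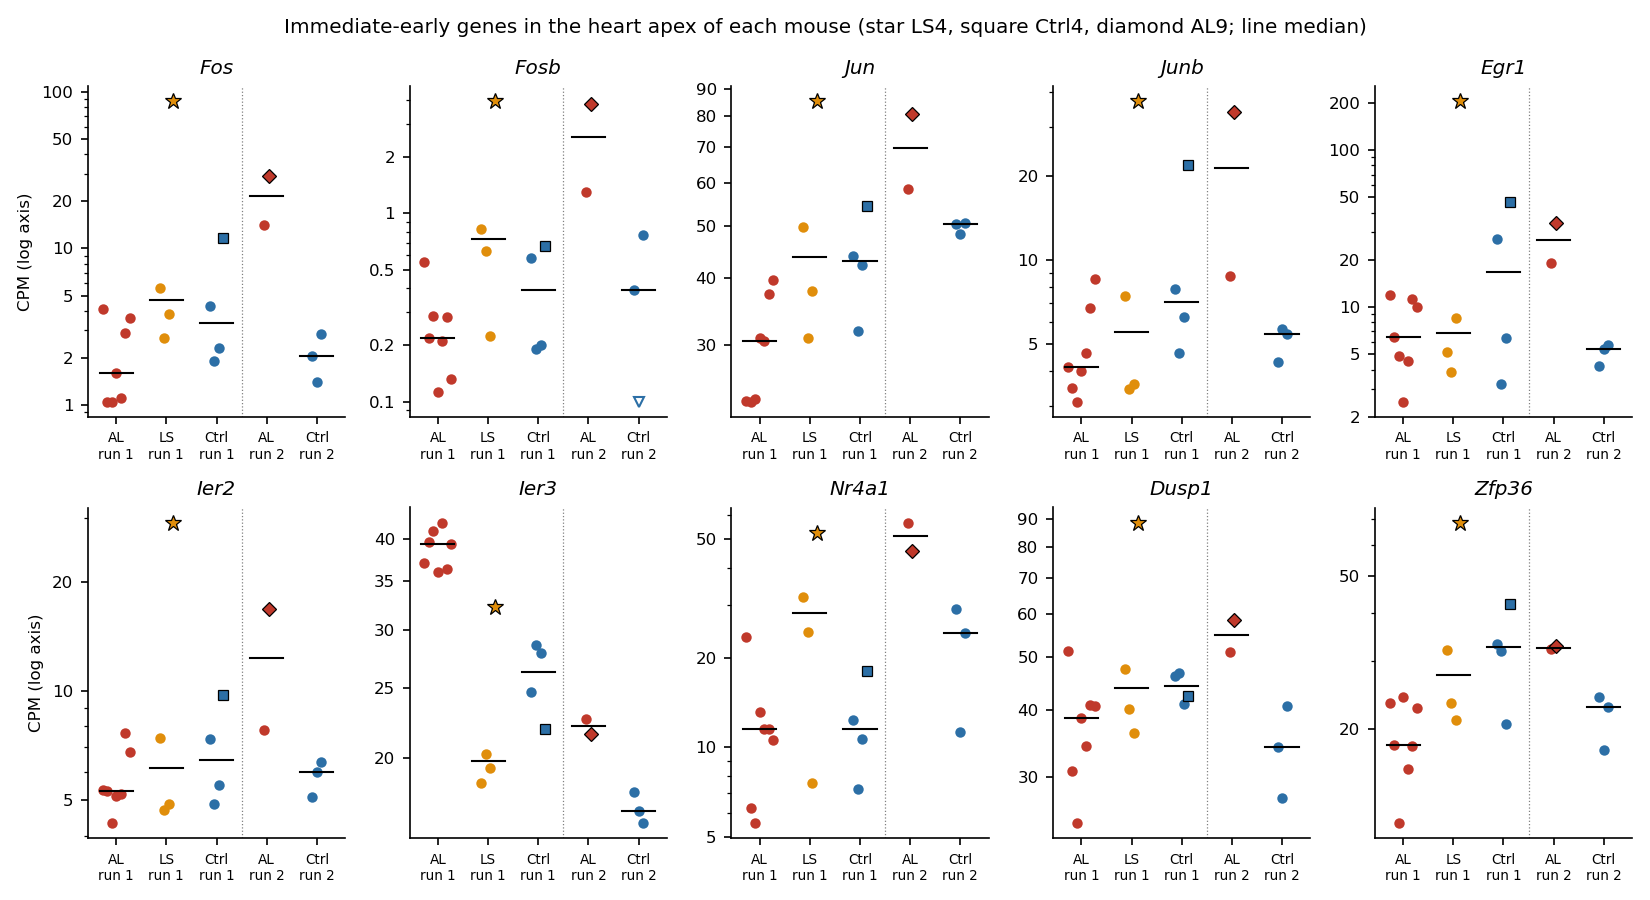
Level of each of the 10 genes in each of the 20 mice, as CPM on a log axis, by group and run, with the group's median as a line. LS4 (star) lies highest of all mice in 8 panels, both AL mice of run 2 lie above their 3 Ctrl mice in all panels, and in the Ier3 panel the 7 AL mice of run 1 lie between 36.0 and 42.1 CPM, above all others; the open triangle marks Fosb in Ctrl6, which had 0 counts and is drawn at an arbitrary height.

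To show what the upstream sequences of these genes hold, the 250 bases before the start of each gene were read from RefSeq (build GRCm38.p6), which gave a window for 8 of the 10 genes, all but Egr1 and Ier2. The search covered both strands. It took in TGACG, the core of the cAMP response element that CREB and related factors bind, its full form TGACGTCA, which contains TGACG, the CArG box bound by serum response factor, and the AP-1 and core promoter motifs given below. The windows of 4 genes are printed because these genes have different roles and different patterns across mice, 5′ to 3′ on the gene's own strand, with TGACG, its reverse complement CGTCA, TGACGTCA and the CArG box in capitals. Fos (chr12:85473640-85473889, plus strand) and Nr4a1 (chr15:101266596-101266845, plus strand) are genes of the transcription factor group. Dusp1 (chr17:26508473-26508722, minus strand) is a feedback gene and Ier3 (chr17:35821463-35821712, plus strand) is the gene with its own pattern.
Fos promoter: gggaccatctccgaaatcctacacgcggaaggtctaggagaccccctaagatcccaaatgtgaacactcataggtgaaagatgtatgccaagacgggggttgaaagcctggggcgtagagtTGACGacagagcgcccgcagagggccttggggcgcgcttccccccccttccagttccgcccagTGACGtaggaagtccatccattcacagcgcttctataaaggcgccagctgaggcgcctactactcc
Nr4a1 promoter: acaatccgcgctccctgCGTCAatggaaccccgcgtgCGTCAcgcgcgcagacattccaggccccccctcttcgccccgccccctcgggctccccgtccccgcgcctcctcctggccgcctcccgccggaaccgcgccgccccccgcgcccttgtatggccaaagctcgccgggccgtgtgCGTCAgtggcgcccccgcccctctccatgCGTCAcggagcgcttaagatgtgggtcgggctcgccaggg
Dusp1 promoter: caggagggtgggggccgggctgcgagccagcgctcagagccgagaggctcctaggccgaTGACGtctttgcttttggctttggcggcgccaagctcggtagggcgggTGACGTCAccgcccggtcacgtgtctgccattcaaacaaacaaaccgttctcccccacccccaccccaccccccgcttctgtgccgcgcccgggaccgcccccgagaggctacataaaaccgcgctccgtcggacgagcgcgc
Ier3 promoter: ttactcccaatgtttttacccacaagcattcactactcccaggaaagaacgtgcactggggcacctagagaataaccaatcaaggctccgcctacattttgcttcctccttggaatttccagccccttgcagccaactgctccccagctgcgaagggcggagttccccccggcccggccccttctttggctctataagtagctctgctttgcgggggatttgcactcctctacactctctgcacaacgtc

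TGACG was present in 5 of the 8 windows, those of Fos, Fosb, Junb, Nr4a1 and Dusp1, against 17.8% of 32851 windows of the same length. The Nr4a1 window held it at 4 places, from position -233 to position -40 relative to the start, and the Fos window at 2. The Dusp1 window held the full TGACGTCA at position -143, a form found in 1.55% of all windows. The Jun, Zfp36 and Ier3 windows did not contain TGACG. A CArG box was found in the Zfp36 window alone (chr7:28379229-28379478, minus strand), at position -58, and in 1.47% of all windows. Sequence more than 250 bases upstream was not searched, and neither were Egr1 and Ier2, so boxes there would be missed. The AP-1 motif TGANTCA was in 0 of the 8 windows and in 6.75% of all. Only the exact forms named were searched, so a near match such as the TGACATCA of the Jun window was not counted. GGGCGG, the GC box, was in 7 of the 8 windows and in 32.7% of all windows, CCAAT was in 3 and in 33.9%, and TATAAA was in the Fos window and in 12.4%. The RefSeq starts lay within 30 bases of the start of a GENCODE transcript for all 8 genes, but GENCODE also lists transcripts of Nr4a1, Dusp1 and Zfp36 that start 12577, 53656 and 1025 bases further upstream, and those starts were not searched. These are matches of letters only, and no binding was measured.

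The comparison of AL with Ctrl sets λS-DH mice with cardiac amyloid against DH mice, with LS and run held in the same fit. AL mice also carry the light chain and had been induced, so deposits cannot be told apart from these here. A gene counts as called here if it passed an FDR of 0.05 and changed by at least 0.58 on the log2 scale. None of the 10 genes passed, against 7.81% of all tested genes (4.1% higher and 3.71% lower in AL, edgeR quasi-likelihood test with Benjamini-Hochberg adjustment). At an unadjusted p under 0.05 there was 1 gene, a level that 38.8% of all tested genes reached, and DESeq2 also called 0. That gene was Ier3, whose mean in the 9 AL mice was 35.1 ± 7.62 CPM (SD), while the 7 Ctrl mice averaged 22.0 ± 5.14 CPM. Its log2 fold change was 0.53 (SE 0.10, FDR 0.00132), under the fold limit. With an FDR under 0.05 alone, 26.2% of all tested genes passed. With ComBat-seq adjusted counts the FDR of Ier3 was 0.0864. With the liver genes as a covariate its log2 fold change was 0.33 (FDR 0.0668). The summed liver level had a median of 7.92 CPM in AL and 54.4 CPM in Ctrl. This covariate thus shares part of the group difference, and that fit cannot separate them. The other 9 genes had log2 fold changes from -0.49 for Egr1 to 0.36 for Nr4a1, with Zfp36 at -0.35, Fosb at 0.30, Jun at -0.21, Junb at -0.15, Ier2 at 0.13, Dusp1 at 0.05 and Fos at 0.00, and FDRs of at least 0.338.

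For these 9 genes the fitted values had opposite signs in the runs. Within run 1, 9 of the 10 genes had negative log2 fold changes in AL against Ctrl, from -1.51 for Egr1 and -1.20 for Fos to -0.04 for Nr4a1, where 51.5% of all tested genes were positive. Ier3 was the 1 gene called there (log2 fold change 0.59, SE 0.12, FDR 0.00412), against 6.65% of all tested genes. Without Ctrl4 the run 1 values were -0.73 for Egr1, -0.37 for Fos and -0.34 for Junb, which had been at -1.04, and Nr4a1 was at 0.21. Ier3 was then at 0.52 (edgeR FDR 0.0209), under the fold limit, as it also was without AL2, AL3, AL5 or Ctrl1. With the liver genes as a covariate it was at 0.28 (edgeR FDR 0.474). In run 1 the summed liver level had a median of 8.1 CPM in AL and 192.8 CPM in LS and Ctrl, with overlapping ranges. That covariate thus largely followed group, and over all tested genes fewer were called with it. Zfp36 and Jun had unadjusted p-values of 0.0124 and 0.0284 in the edgeR fit of all mice without this covariate and FDRs of 0.0617 and 0.107. Within run 2, all 10 genes had positive log2 fold changes, where 49.4% of all tested genes had a log2 fold change above 0. The values were 3.35 for Fos, 2.66 for Fosb, 2.38 for Egr1, 2.06 for Junb and 1.25 for Nr4a1, down to 0.37 for Ier3, and none was called (lowest FDR 0.0856, for Fos) where 8.47% of all tested genes were. Without AL9, which leaves AL8 as the only AL mouse of run 2, the values were 2.74 for Fos, 1.91 for Egr1, 1.70 for Fosb, 1.41 for Nr4a1, 0.78 for Junb and 0.44 for Ier2, which had been at 1.09, and the calls over all tested genes went from 1226 to 190. Of the 10 genes 3 were called in run 2 in the fit without LS4, which pools the spread of all groups. The share of all tested genes called in that fit is not given here. All 10 genes were also above all 3 Ctrl mice in both AL mice of run 2, a pattern of 14% of tested genes.

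The difference between the runs was tested as an interaction. It was positive for 9 of the 10 genes, with 4.55 for Fos (SE 1.49), 3.89 for Egr1, 3.32 for Fosb, 3.10 for Junb and 1.34 for Zfp36 on the log2 scale, and -0.22 for Ier3, where 50.3% of all tested genes were positive. For 7 genes the unadjusted p was under 0.05, a level that 17.2% of all tested genes reached. None passed after Benjamini-Hochberg adjustment in edgeR (FDR 0.123 for Fos, the lowest), where 1.41% of all tested genes were called, and DESeq2 called 0 as well. In the fit of AL and Ctrl alone 1 gene was called, with Xist as a covariate 2, and without LS4 1. The share of all tested genes called with Xist and without LS4 is not given here. Without LS4, Ctrl4 and AL9 together the differences were 3.10 for Fos, 2.63 for Egr1, 2.01 for Fosb and 1.10 for Junb. Run 2 rests on 2 AL and 3 Ctrl mice. AL9 also had the highest summed level of the fibroblast (4551 CPM), macrophage (790.7 CPM) and neutrophil lists (41.6 CPM) of all mice, over 8, 9 and 8 genes. Within run 2, 6 of 7 tested neutrophil genes were called higher in AL (median log2 fold change 3.89), as were 3 of 8 fibroblast genes and 1 of 9 macrophage genes, while 2 of 8 endothelial genes were lower, and 5 of the 7 neutrophil genes were called in the interaction. Their part in the result was not tested. AL8 had lower Fos, Junb and Egr1 than AL9 and was above the 3 Ctrl mice of its run for each of the 10 genes.

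AL against LS compares transgenic mice with and without deposits. Of the 10 genes, 9 had a negative log2 fold change, where 51.4% of all tested genes had a positive one, and 2 were called, where 8.9% of all tested genes were (5.86% higher and 3.03% lower in AL). Ier3 rose, from 22.6 ± 6.45 CPM (SD, n = 4) in LS to 35.1 ± 7.62 CPM in AL, with a run-adjusted log2 fold change of 0.76 (SE 0.12, edgeR FDR 0.000602). Fos fell by 2.94 on the log2 scale (SE 0.96, FDR 0.0338). Egr1 (-2.47), Fosb (-2.02), Nr4a1 (-1.15), Ier2 (-0.86), Zfp36 (-0.77) and Jun (-0.65) had unadjusted p-values under 0.05, a level that 36.8% of all tested genes reached, and FDRs of 0.0549 to 0.130. Junb (-0.998) and Dusp1 (-0.40) did not reach that level. In run 1 alone 7 genes were called, in the fit of AL and LS alone also 7, and with DESeq2 6, with no adjusted p for Fos. The share of all tested genes called in these fits is not given here, so the counts have no background to be read against. The count also moved as single mice were left out. It was 1 without any of AL2 to AL7, 3 without AL8 or LS2, 4 without Ctrl6, 5 without AL9 or LS3 and 6 without Ctrl4. Over all tested genes, 959 to 1455 were called as single mice were left out. The call of Ier3 held in each of these fits, and with ComBat-seq adjusted counts its FDR was 0.0905.

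Without LS4 the values of the other 9 genes were nearer to 0 or changed sign. Fos was then at -0.31, Fosb at -0.70, Nr4a1 at -0.71, Jun at -0.29, Zfp36 at -0.27 and Dusp1 at -0.045, Egr1, Junb and Ier2 were at 0.80, 0.42 and 0.16, and Ier3 alone was called, with 0.97. In run 1 without LS4, 1 gene was called in place of 7. There Ier3 was 1.01 higher in AL (SE 0.09, edgeR FDR 6.02e-05), while Fos was at -0.86, Fosb at -1.09 and Nr4a1 at -0.85 with FDRs of 0.274, 0.140 and 0.158. In LS4 itself Ier3 was 1.66 times the mean of the other LS mice.

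**Figure D2:**
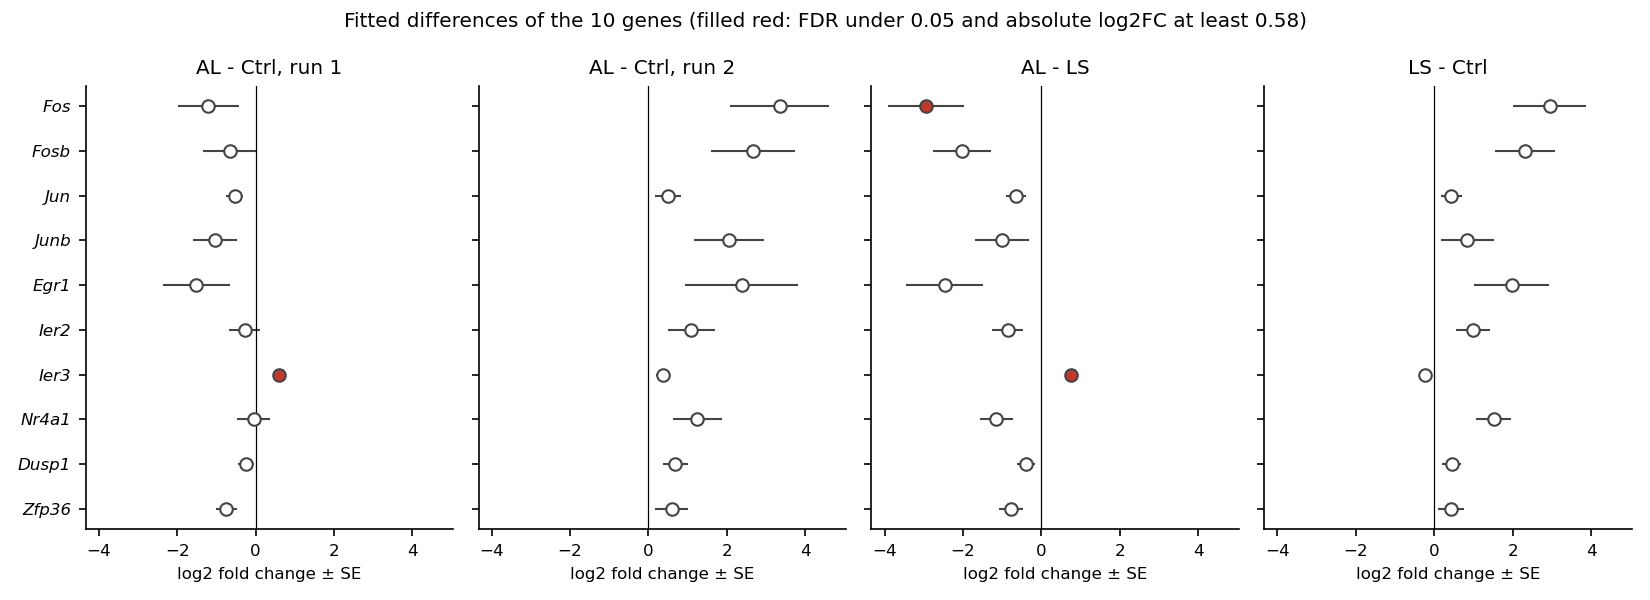
Log2 fold change ± SE of the 10 genes for AL against Ctrl within run 1 and within run 2, AL against LS and LS against Ctrl, from edgeR fits, with filled points for genes past both limits. 9 genes lie left of 0 in run 1 and all 10 lie right of 0 in run 2, while Ier3 lies right of 0 in every panel but the last, where it is at -0.23.

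**Figure D3:**
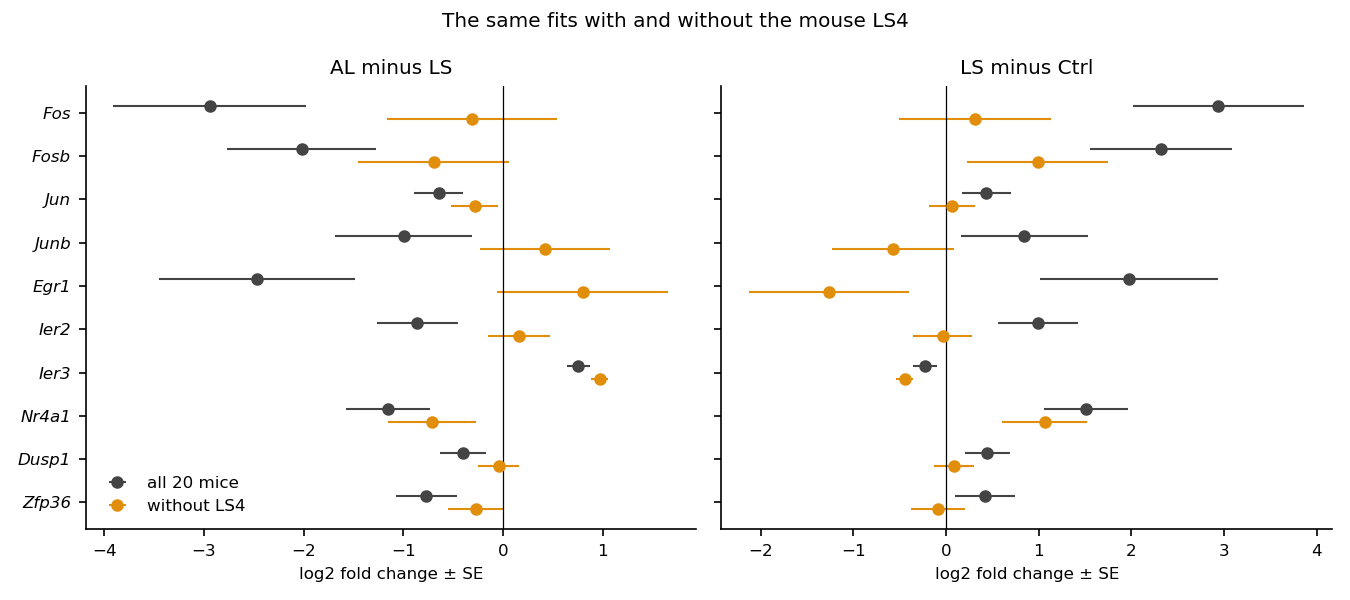
Log2 fold change ± SE for AL against LS and for LS against Ctrl, from the fit of all 20 mice and from the fit without LS4. Fos moves from -2.94 to -0.31 in the first panel and from 2.94 to 0.32 in the second, and Egr1 crosses 0 in both.

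LS against Ctrl asks for effects of the light chain without deposits, and it shares its mice with the comparisons above. None of the 10 genes was called, where 0.0207% of all tested genes, or 3 genes, were, and DESeq2 also called 0. The 4 genes with an unadjusted p under 0.05 in edgeR were Fos (2.94), Fosb (2.32), Nr4a1 (1.51) and Ier2 (0.99), with FDRs of 0.680 to 0.817, at a level that 5.94% of all tested genes reached. Egr1 was at 1.97, Junb at 0.85, Dusp1 at 0.45, Jun at 0.44, Zfp36 at 0.42 and Ier3 at -0.23. Without LS4, Nr4a1 was at 1.06, Fosb at 0.99 and Fos at 0.32, and Egr1, Junb, Zfp36 and Ier2 were at -1.26, -0.57, -0.09 and -0.03. All LS mice were in run 1, so these values rest on a run term estimated from AL and Ctrl mice. Mean levels in LS without LS4 and in the Ctrl mice of run 1 were 4.02 and 5.07 CPM for Fos. They were 0.561 and 0.410 CPM for Fosb and 21.3 and 12.1 CPM for Nr4a1.

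With LS and Ctrl merged into 11 mice without deposits, and the fold limit of 1 on the log2 scale that goes with this comparison, 0 of the 10 genes were called, against 4.88% of all tested genes, and DESeq2 also called 0. In edgeR 2 genes had an unadjusted p under 0.05, as did 45.6% of all tested genes. Ier3 had a log2 fold change of 0.61 (SE 0.09, FDR 7.1e-05) and Zfp36 of -0.51 (FDR 0.102). The other 8 genes were between -1.60 for Fos and -0.13 for Dusp1, with Egr1 at -1.43, Fosb at -0.84, Junb at -0.48, Jun at -0.38, Nr4a1 at -0.32 and Ier2 at -0.29.

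Run 2 differed from run 1 in 4 of the 10 genes at the same limits as for AL against Ctrl, where 19.4% of all tested genes did (9.12% higher and 10.3% lower in run 2). Fosb (log2 fold change 1.95), Nr4a1 (1.504) and Jun (0.72) were higher in run 2 and Ier3 was lower by a log2 fold change of -0.69 (edgeR FDRs of 0.0281, 0.00298, 0.0120 and 6.5e-05). In the Ctrl mice alone, mean levels in run 1 and run 2 were 0.410 and 0.387 CPM for Fosb, 43.1 and 49.7 CPM for Jun, 12.1 and 21.5 CPM for Nr4a1, and 25.7 and 17.1 CPM for Ier3. In AL they were 0.256 and 2.55 CPM for Fosb and 29.8 and 69.6 CPM for Jun, so that for these genes the runs were further apart in AL than in Ctrl, a difference that the interaction did not call. Fos (1.61), Junb (0.80), Ier2 (0.47), Egr1 (0.31), Zfp36 (0.11) and Dusp1 (0.10) did not pass. Without AL9 2 genes were called, and with Xist as a covariate 1. Over all tested genes, 2668 to 2881 were called as single mice were left out, and the total with Xist is not given here. Runs differed in depth and in the share of mitochondrially encoded transcripts, which was 29.4 to 37.1% in run 1 and 18.3 to 30.4% in run 2. Besides the liver genes, 4 of 8 fibroblast genes, 3 of 5 erythroid genes and 2 of 8 mural genes were called lower in run 2 and none higher, and the part of any of these in the result was not tested.

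Across the 20 mice, 9 of the genes varied together within groups and runs. With group and run means removed from log2 CPM, Pearson's r over the 36 pairs without Ier3 ran from 0.44 to 0.96 with a median of 0.71, and Spearman's rho from 0.35 to 0.95 with a median of 0.61. In 35 of the 36 pairs the Benjamini-Hochberg adjusted p of r over all 45 pairs was under 0.05 (permutation test, 100000 resamples, smallest p 1e-05), and in 32 that of rho. Removing the means leaves fewer free values than mice, which the permutations did not take into account. The p-values of the weaker pairs can therefore be too small. The share of pairs among all tested genes that pass the same test is not given here. The pair with the highest r was Junb with Ier2 (0.96). Fos reached 0.91 with Egr1, 0.91 with Ier2 and 0.90 with Junb, and Jun with Fosb was lowest at 0.44. In the 9 pairs with Ier3, r ran from 0.17 to 0.48 and rho from -0.14 to 0.06, and none passed.

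Part of these values rested on the 2 mice farthest from the median of 1 gene of the pair, which included LS4 for most pairs. For Nr4a1 with Dusp1 and Nr4a1 with Zfp36 they were AL3 and LS3. After leaving out the 2 mice farthest from the median of 1 gene of each pair and removing the means anew, r over the 36 pairs ran from 0.09 to 0.95 with a median of 0.50. Junb with Ier2 kept 0.95, Junb with Jun was at 0.87 and Fos with Dusp1 at 0.80, whereas Egr1 with Nr4a1 was at 0.09 and Egr1 with Zfp36 at 0.12. The 9 pairs with Ier3 were then all negative, from -0.70 to -0.32. In run 1 alone the median r of the 36 pairs was 0.78 and 34 passed. The values of 1 mouse share a library and its total.

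**Figure D4:**
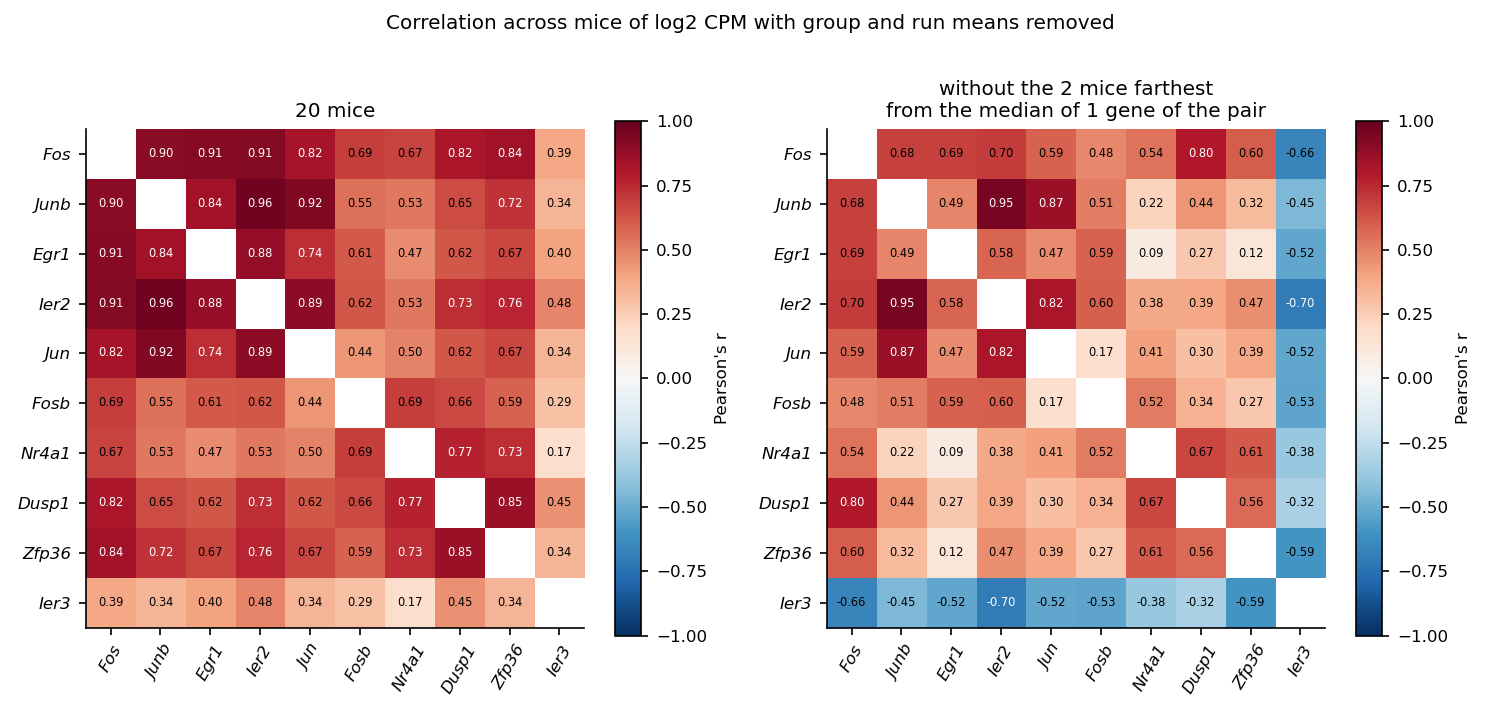
Pearson's r between the 10 genes across mice, of log2 CPM with group and run means removed, for all 20 mice and after leaving out the 2 mice farthest from the median. In the first panel the 36 pairs without Ier3 lie between 0.44 and 0.96, and in the second panel the Ier3 row is negative throughout.

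The genes whose residual pattern was most like the mean of the 10, among 14467 other tested genes and over 20 mice, were Ccn1 (r = 0.89), which encodes a matrix-associated signalling protein, the chemokine gene Cxcl1 (0.82), Sertad1 (0.82), the antiproliferative gene Btg2 (0.82), the heat shock genes Dnajb1 (0.81) and Hspa1b (0.78), the transcription factor gene Klf2 (0.80) and Spty2d1 (0.77). Of these 8 genes 6 belong to the lists of related genes described next, and Sertad1 and Spty2d1 do not. LS4 had 106.7 CPM of Ccn1 and 64.8 CPM of Hspa1b, against medians of 19.6 and 2.53 CPM in the other LS mice. Without LS4 their r was between 0.60 and 0.78, and the genes most like the 10 were then Plaur (0.88), Dusp6 (0.87), Adamts1 (0.87) and Wsb1 (0.87). The leading genes thus differed with and without this mouse.

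Lists of related genes show how far LS4 reached beyond the 10 genes. LS4 was the highest of 20 mice for 8 of the 10 genes, as it was for 5.13% of all tested genes. Of the relatives of Egr1 and Nr4a1, LS4 was highest for Egr2 and Egr3 (2 of 7), with 27.8 and 21.3 CPM against at most 1.10 and 1.46 CPM in the other LS mice. The table splits Egr2 over 2 rows, which were summed here. Of the heat shock genes it was highest for Hspa1a (76.5 CPM), Hspa1b, Dnajb1 (73.2 CPM) and Hspd1, which is 4 of 10. Of 44 other early response genes it was highest for 5, Ccn1, Cxcl1, Cxcl2, Klf2 and Rnd3. It was highest for none of 11 relatives of the AP-1 genes, of 12 relatives of Dusp1 with the Sprouty genes, and of 2 relatives of Ier2, for 1 of 5 RNA decay genes (Btg2) and for 2 of 24 upstream regulators.

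Some related genes differed between AL and the other groups. In AL against Ctrl, Atf3, a stress-induced partner of AP-1, rose by a log2 fold change of 0.92 and was 1 of 12 tested AP-1 relatives called. Of the 44 other early response genes 4 rose and none fell, where 4.1% of all tested genes rose and 3.71% fell, namely Npas4 (2.28), Hbegf (0.71), Pim1 (0.65) and Id2 (0.59). Npas4 was at most 0.43 CPM in any AL mouse, and the floor of run 2 was 0.254 to 0.381 CPM. Of the heat shock genes Hspb1 rose (0.94), and none of the 24 upstream regulators, which include Srf, Creb1 and the MAP kinases, was called (edgeR FDRs of the called genes 0.00167 to 0.0399). The call of Atf3 was lost in 9 of 20 fits without 1 mouse and in 7 of 14 other alternatives, that of Id2 in 9 and 4, of Hbegf in 4 and 6, and of Pim1 in 1 and 4. That of Hspb1 was lost in 0 and 4, and that of Npas4 in 1 of 20 and 5 of 11. Within run 1 the log2 fold changes were 0.64 for Atf3, 2.78 for Npas4, 0.75 for Hbegf, 0.50 for Pim1, 0.89 for Id2 and 0.79 for Hspb1, and within run 2 they were 1.58, 1.22, 0.62, 1.00, -0.25 and 1.30 in the same order. Npas4 and Id2 were called in run 1 and Pim1 in run 2. The medians were 0.10 for the AP-1 relatives, 0.05 for the other early response genes, -0.04 for the upstream regulators and -0.05 for heat shock, beside 0.01 over all tested genes and 0.02 over the 10 genes.

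In AL against LS, Btg1 (0.64), Plk2 (0.76) and Id2 (0.64) were called higher and Dnajb1 (-1.06) lower, and no AP-1, EGR, NR4A, IER or DUSP relative and no upstream regulator was called (edgeR FDRs of the called genes 0.00202 to 0.0479). The call of Id2 was lost in 15 of 20 fits without 1 mouse and in 5 of 14 other alternatives, those of Btg1, Plk2 and Dnajb1 in at most 2 of each. Beside a median log2 fold change of 0.01 over all tested genes, the list medians were 0.39 for the RNA decay genes, 0.36 for the 2 relatives of Ier2, 0.15 for the AP-1 relatives, 0.04 for the other early response genes, -0.02 for the DUSP relatives, -0.12 for the upstream regulators, -0.19 for heat shock and -0.80 for the EGR and NR4A relatives. The median of the 10 genes was -0.93. In the merged comparison, Npas4 (1.96) was the only related gene called, and in LS against Ctrl none was.

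In run 2 against run 1, where 10.3% of all tested genes were called lower and 9.12% higher, 5 of 10 heat shock genes were lower and none higher, including Dnaja1 (-1.22), Hsph1 (-1.20), Hsp90aa1 (-1.08) and Hspe1 (-1.04). Of 44 other early response genes 9 were lower and 1 higher, with Klf10 (-1.20), Cebpb (-1.05) and Id2 (-1.04) among the former. Maff (-1.18), Nr4a3 (-1.37), Zfp36l2 (-0.66), Dusp2 (-1.70), Errfi1 (-0.93) and Spred1 (-0.82) were lower as well, Dusp10 was higher (0.73), and of the upstream regulators Crem (-1.34) and Creb1 (-0.75) were lower and Mapk7 (0.72) higher. So in run 2, where Fosb, Nr4a1 and Jun were called higher, most related genes that were called were lower (edgeR FDRs of the genes named 1.24e-06 to 0.0389). In the interaction, Ppp1r15a was called higher (1.12) and Batf2 lower (-2.48), at FDRs of 0.0318 and 0.0236.

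**Figure D5:**
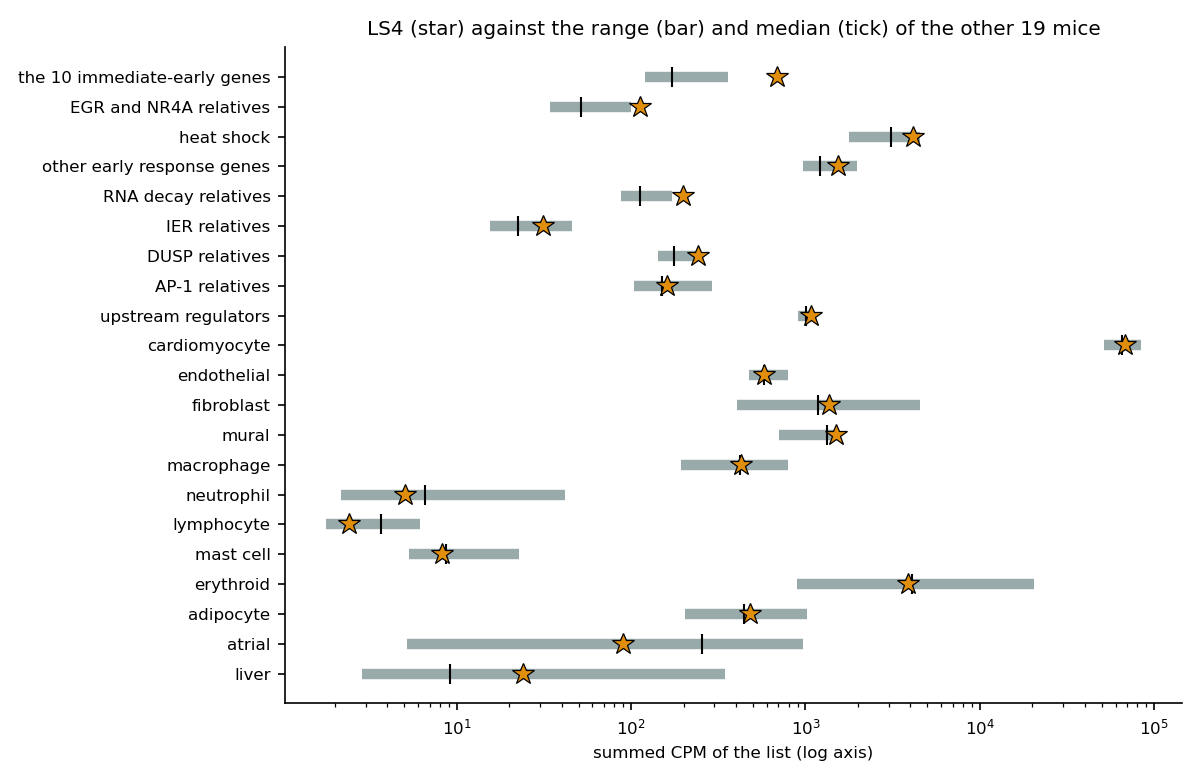
Summed CPM of each gene list in LS4 (star) against the range and median of the other 19 mice, on a log axis. The 10 immediate-early genes sum to 690.8 CPM in LS4 and to at most 357.2 CPM in the others, while LS4 lies within the range of the others for cardiomyocyte, endothelial, fibroblast, macrophage and neutrophil markers.

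For most marker lists LS4 lay within the range of the other 19 mice. Its summed level was 68340 CPM for cardiomyocyte markers (range of the others 51320 to 84210), 580.8 CPM for endothelial (474.9 to 794.9), 1360 CPM for fibroblast (406.6 to 4551) and 428.6 CPM for macrophage markers (193.1 to 790.7). Its neutrophil (5.03 CPM), lymphocyte (2.41 CPM), mast cell (8.24 CPM), erythroid (3892 CPM), adipocyte (481.0 CPM), atrial (89.6 CPM) and liver sums (24.0 CPM) were also within the ranges, and its mural sum (1495 CPM) was just above the highest of the others (1459 CPM). Ctrl4 had the highest neutrophil sum of the Ctrl mice, 23.1 CPM. None of the listed markers was at 0 in all mice. All 3 tested atrial genes were called higher in AL than in Ctrl, and the atrial sum was 138.9 to 964.0 CPM in AL, 89.6 to 396.1 in LS and 5.18 to 137.6 in Ctrl, and their part in the Ier3 result was not tested.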

How the data were processed

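Poly(A) libraries of the heart apex of 20 mice were made with a stranded kit and sequenced in 2 runs. The authors aligned reads to GRCm38 with STAR, quantified them with Salmon and an Ensembl annotation in an nf-core pipeline set to reverse strandedness, and deposited the estimated counts (expected counts) of 25308 genes per mouse, in 1 table for both runs and not normalized. Of the deposited values 14.2% were not whole and were rounded. Groups came from the sample titles, and run from the batch given per sample.

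Genes were kept with filterByExpr of edgeR 4.0.16 (minimum count 10), scaled with TMM, and tested with edgeR's quasi-likelihood test in R 4.3.3 (group plus run, all groups in 1 fit, Benjamini-Hochberg adjustment over 14477 genes). Calls required an FDR below 0.05 together with a log2 fold change of 0.58 or more in size (1 for the merged controls). The SE is the log2 fold change divided by the square root of its F statistic. The interaction was fitted with 1 mean per group and run. The labels do not say that the mice of a group came from separate litters, so p-values measure the spread between these mice. The code was tested on simulated counts with known changes. Correlations used 100000 permutations. Alternatives were DESeq2 1.42.0, ComBat-seq (sva 3.50.0), other filters, scalings, covariates and mice left out.

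The 10 genes and the related and marker lists were chosen with earlier results of these data known. Named related genes were those called, at most 4 per list and comparison by absolute log2 fold change, and the 8 genes with the highest r to the mean of the 10 (group and run means removed). Of the genes this rule names, 1 is not reported here. Exon lengths and overlaps came from GENCODE M21 and promoter windows from RefSeq.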

Additional observations from a re-analysis of the deposited data

Results flagged for a closer look

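In 12 of 30 tests of a single mouse against its group (10 genes in 3 groups), the gap between the highest mouse and the next was larger than Dixon's 95% critical value allows. Chance gives about 1 in 20 such groups only where values are normally distributed. The CPM here were not log-transformed, the AL and Ctrl groups span 2 runs, and the genes are not independent of each other. Over all 14477 tested genes, the same gap was exceeded with AL9 highest in 9.75%, with LS4 highest in 0.953% and with Ctrl4 highest in 0.691%. No lowest mouse stood apart. Of the 12, 6 were LS4 among the 4 LS mice, with 87.6 CPM of Fos (next 5.60), 3.95 CPM of Fosb (next 0.827), 37.2 CPM of Junb (next 7.47), 205.8 CPM of Egr1 (next 8.52), 29.1 CPM of Ier2 (next 7.42) and 32.2 CPM of Ier3 (next 20.3). Another 4 were AL9 among the 9 AL mice, with 29.1 CPM of Fos (next 14.1), 3.79 CPM of Fosb (next 1.30), 33.9 CPM of Junb (next 8.77) and 16.9 CPM of Ier2 (next 7.82). The next mouse was AL8, of the same run, for each of these 4 genes. The remaining 2 were Ctrl4 among the 7 Ctrl mice, with 11.7 CPM of Fos (next 4.31) and 21.9 CPM of Junb (next 7.88).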

How the results depend on the processing

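Calls in AL against Ctrl, AL against LS, LS against Ctrl, the merged comparison, the run comparison and the interaction numbered 1130, 1288, 3, 707, 2809 and 204 genes. When each mouse had to have 10 counts or more, they were 587 in AL against Ctrl, 138 in the merged comparison and 113 in the interaction, where fewer genes were tested. ComBat-seq counts gave 753, 642 and 6 in the first 3 comparisons, and DESeq2 gave 21 in LS against Ctrl and 512 in the interaction. The interaction gave 97 genes with AL and Ctrl alone, 14 with the liver covariate, 41 without LS4, Ctrl4 and AL9 together, and 65 to 1948 as single mice were left out, which for AL8 or AL9 leaves 1 AL mouse in run 2 that is assumed to vary like the others. Of the 10 genes, AL against Ctrl called 1 without a run term, 1 in run 1 alone and 2 in run 1 without LS4. AL against LS called 1 without a run term, 7 in run 1 alone, 1 in run 1 without LS4, 7 with AL and LS alone, 4 with Xist, 1 with the liver covariate, 6 with DESeq2, 1 without the 3 mice together, and 1 to 6 as single mice were left out. The merged comparison called 3 in run 1 alone, the run comparison 1 with Xist and 2 to 4 with single mice left out, and the interaction 1 with AL and Ctrl alone, 2 with Xist and 0 to 1 with single mice left out. The median r of 45 pairs was 0.669, and 0.439 without the 2 mice farthest from the median. Leaving out LS4, Ctrl4 and AL9 together, and run 1 without LS4, were chosen after seeing the data. Within run 1, 962 genes and 1 of the 10 were called, and within run 2, 1226 and 0. When each mouse had to have 10 counts or more, 597 genes were called in run 1. With AL and Ctrl alone 2 of the 10 were called in each run, with Xist 4 in run 1 and 1 in run 2, with the liver covariate 0 and 29 genes in run 1, and with DESeq2 2 in run 1. Where a count of the 10 stands in this section without a total, the share of all tested genes called is not given. Such a count has no background to be read against. Without the 3 mice together 0 of the 10 were called in run 1, and 137 genes in run 2. With single mice left out, 0 to 2 of the 10 were called in run 1 and 0 to 3 in run 2, where the genes called ranged from 190 to 3226, both extremes with 1 AL mouse in run 2. The alternatives for the values within runs were also chosen after seeing the data.

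The deviations of same-numbered mice had an r from -0.154 to 0.231 over 12 pairs, 3 of them above 0.1. Differently numbered mice were not compared, so these values cannot settle whether the replicate numbers pair mice. With the replicate block the calls were 2 in AL against Ctrl, 5 in AL against LS, 1 in the merged comparison and 0 between runs, and it changed the sign in AL against Ctrl of Fosb (-0.15), Ier2 (-0.34), Nr4a1 (-0.17) and Dusp1 (-0.33), in LS against Ctrl of Junb (-0.018), and between runs of Fos (-1.10), Jun (-0.26), Junb (-1.41), Egr1 (-1.31), Ier2 (-0.50), Dusp1 (-0.52) and Zfp36 (-0.54), of which Jun had been called. The block was not run for the interaction, and ComBat-seq, no run term and run 1 alone do not apply to the comparisons of runs.

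Of 1255 log2 fold changes of the 10 genes and the related genes named, under alternatives other than leaving out 1 mouse, 1187 kept their sign, 77 lost a call and 45 gained one. The changes of sign beside those with the block were all in genes that had not been called. In AL against Ctrl they were Fos (1.13), Junb (0.33), Egr1 (0.62) and Dusp1 (-0.017) with ComBat-seq, Fos (0.050) with DESeq2, Fos (0.0037) with RLE factors, Fos (0.021) in the fit of these groups alone, Ier2 (-0.090) and Dusp1 (-0.095) with Xist, Fosb (-0.66), Ier2 (-0.28), Nr4a1 (-0.047) and Dusp1 (-0.24) in run 1 alone, Fosb (-0.66), Ier2 (-0.27), Nr4a1 (-0.040) and Dusp1 (-0.23) in run 1 without LS4, Fos (1.55), Jun (0.18), Junb (0.79) and Egr1 (0.94) with the liver covariate, Fos (0.61) and Junb (0.032) without a run term, and Fos (0.48) and Dusp1 (-0.028) without the 3 mice. In AL against LS they were Junb (0.050), Egr1 (0.34) and Ier2 (0.018) in run 1 without LS4, and Junb (0.13), Egr1 (0.58) and Ier2 (0.051) without the 3 mice. In LS against Ctrl they were Ier3 (0.027) without a run term, Junb (-0.18) and Egr1 (-0.62) without the 3 mice, and Fos (-0.34), Jun (-0.13), Junb (-1.08), Egr1 (-1.84), Ier2 (-0.29), Dusp1 (-0.10) and Zfp36 (-0.34) in run 1 without LS4. In the merged comparison they were Ier2 (0.15) with DESeq2, and Fos (0.068), Junb (0.019), Egr1 (0.14) and Ier2 (0.062) without the 3 mice. Between runs they were Fos (-0.12), Junb (-0.45), Egr1 (-1.48), Ier2 (-0.29), Dusp1 (-0.29) and Zfp36 (-0.32) with Xist, and Egr1 (-0.034) and Dusp1 (-0.042) without the 3 mice. In the interaction it was Ier3 (0.10) with the liver covariate, and within run 1 Nr4a1 (0.23) without the 3 mice. The cause was not tested.

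With single mice left out, signs changed in AL against Ctrl for Fos (-0.34 to 0.78), Fosb (-0.18 to 0.67), Junb (-0.66 to 0.45), Egr1 (-0.84 to 0.20), Ier2 (-0.13 to 0.32) and Dusp1 (-0.044 to 0.11), in AL against LS for Junb (-1.33 to 0.42), Egr1 (-2.87 to 0.80) and Ier2 (-1.13 to 0.16), in LS against Ctrl for Junb (-0.57 to 1.56), Egr1 (-1.26 to 2.79), Ier2 (-0.034 to 1.25) and Zfp36 (-0.086 to 0.62), in the merged comparison for Ier2 (-0.51 to 0.13) and Dusp1 (-0.21 to 0.014), between runs for Junb (-0.29 to 1.10), Egr1 (-0.55 to 0.65), Dusp1 (-0.052 to 0.21) and Zfp36 (-0.061 to 0.26), and within run 1 for Nr4a1 (-0.31 to 0.21). Run 2 was sequenced less deeply, so that low genes such as Fosb rest on few counts there.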

Other observations

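Genes whose pattern across the 20 mice was most like that of Ier3 were looked up after its values had been seen, with run means removed from log2 CPM and group means kept. They were Pcdhgc4 (Pearson's r 0.85), Susd3 (0.85), Ddit3 (0.85), which encodes the endoplasmic reticulum stress factor CHOP, Slc26a10 (0.85), Inpp5b (0.85), Sirt7 (0.84), Flt3l (0.83) and Tead2 (0.81). With group means removed as well, r was -0.016 for Pcdhgc4, 0.42 for Ddit3 and 0.58 for Susd3. These genes were picked for their likeness, and their values are a description without a test.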
